A study of Mus musculus with 14 samples.

Results

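The 10 genes described here, which growing neurons use for fate, migration and process outgrowth, were followed in the cortex of 2 mouse models of the microRNA miR-29. They are the transcription factor genes Sox4 and Sox11, the microtubule genes Dcx and Stmn1, the collapsin response mediators Dpysl3 and Dpysl5, the membrane and actin genes Marcks and Marcksl1, the adhesion gene Igsf9, and Nrep. The members were taken by symbol, 10 of the 24444 genes of each deposited table, and were chosen with earlier results of these data known. All 10 passed the filter on low values in the first model (12014 genes tested) and 9 in the second (10670 genes tested), where Igsf9 lay below it.

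In the first model the mice were floxed at both genomic loci of the family, miR-29ab1 and miR-29b2c, and carried Nestin-Cre. This recombinase acts in neural progenitors, so that neurons, astrocytes and oligodendrocytes should lose the microRNA, while microglia, vessels and meninges should mostly keep it. Neither was measured by cell type here. At postnatal day 40, 3 such miR29Nestin mice stood against 3 miR29WT controls. Whether the miR29WT mice carried floxed alleles or Cre is not given in the sources used here. In the second model the family is intact, and the DNA methyltransferase gene Dnmt3a had its 5 seed matches for miR-29 mutated by a CRISPR/Cas9 knock-in present in all cells. At an age of 4.5 months, 4 Dnmt3a-mi5 animals stood against 4 Dnmt3a-WT animals. The first comparison asks what differs in cortex without miR-29, and the second what differs when Dnmt3a is released from it.

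A newborn cortical neuron switches on Sox4 and Sox11, which activate neuronal genes, and then migrates and extends an axon and dendrites. Dcx stabilises the microtubules of migrating neurons, stathmins such as Stmn1 bind free tubulin and favour disassembly, and collapsin response mediators couple guidance signals to tubulin and actin in the growth cone. Most of these genes decline as neurons mature, so their transcripts in adult cortex can come from lower expression in mature neurons, from the remaining young cells and, for Sox4, Sox11, Marcks and others, also from glia. In bulk tissue, fewer cells of a type and less RNA per cell cannot be told apart.

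The 3 mature miR-29 sequences (RefSeq, GRCm38.p6) are shown because the sites counted in the genes pair with their seed. Capitals mark the seed, bases 2 to 8, which all 3 share.
miR-29a-3p: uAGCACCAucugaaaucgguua
miR-29b-3p: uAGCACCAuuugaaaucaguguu
miR-29c-3p: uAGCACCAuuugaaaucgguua

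A transcript can pair with this seed through TGGTGCT. In the longest annotated 3′ UTR (GENCODE M21, GRCm38), searched on the transcript strand only, the letters occur 2 times in Dpysl3 and 1 time each in Dpysl5, Nrep and Dcx. In the other 6 genes they are not in this window. Of the tested protein-coding genes with a 3′ UTR, 16.6% (1945 of 11707) hold at least 1 such match, and their median 3′ UTR is 1319 nucleotides long against 2756 for the 10 genes. The matches in Dpysl5 and Nrep are followed by an A, which makes the longer form of the site. The sites of Dpysl5 (chr5:30799240-30799246, plus strand) and Dcx (chrX:143863474-143863480, minus strand) are shown with their flanks, the match in capitals.
Dpysl5 site: aaatgtcaTGGTGCTaaggttgt
Dcx site: aaggctatTGGTGCTtaaacatt

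The genes are otherwise unlike each other in structure. Marcksl1 (chromosome 4), Sox4 (chromosome 13), Stmn1 (chromosome 4), Marcks (chromosome 10) and Sox11 (chromosome 12) span 2.41 to 8.31 kb, whereas Dcx (X chromosome) spans 77.5 kb, Dpysl5 (chromosome 5) 87.8 kb and Dpysl3 (chromosome 18) 117 kb. Igsf9 (chromosome 1, 17.1 kb) and Nrep (chromosome 18, 27.0 kb) lie between. The median span was 12.7 kb for the 10 genes and 27.1 kb for the tested protein-coding genes.

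Recovered library sizes in the miR29 table were 11851000 to 13089000 reads in miR29Nestin and 9172000 to 14388000 in miR29WT, and depth is unknown for the Dnmt3a table. Dnmt3a, the gene mutated in the second model, stood at 5275 to 5859 normalised counts in miR29Nestin against 1605 to 1724 in miR29WT, and at 1948 to 2249 in Dnmt3a-mi5 against 1062 to 1234 in Dnmt3a-WT. Normalised counts are library-size-corrected counts recovered from the deposited log2-scale values. They are approximate in the Dnmt3a table, where an additive difference between 2 sets of 4 libraries had been removed from the values, with both groups in each set. The excitatory neuron gene Slc17a7 averaged 16470 normalised counts in miR29Nestin and 19910 in miR29WT.

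Without miR-29, 5 of the 10 genes fell and 0 rose: Nrep, Marcksl1, Igsf9, Sox4 and Sox11 (limma, Benjamini-Hochberg adjusted p under 0.05 over all tested genes). The background is 10% of tested genes lower and 9.02% higher in this comparison (19.1% in either direction). At an unadjusted p under 0.05 there were 9 of 10, against a background of 33.0%. The groups did not overlap in 7 genes, 5 lower and 2 higher, where 18.7% of tested genes lay wholly lower and 18.6% wholly higher. The members' median log2 difference was −0.30, against −0.005 over all tested genes. The 5 calls held when any 1 of the 6 libraries was left out. For Dcx, Stmn1 and Marcks the estimates were below zero and for Dpysl3 and Dpysl5 above it, without passing the test.

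**Figure D1:**
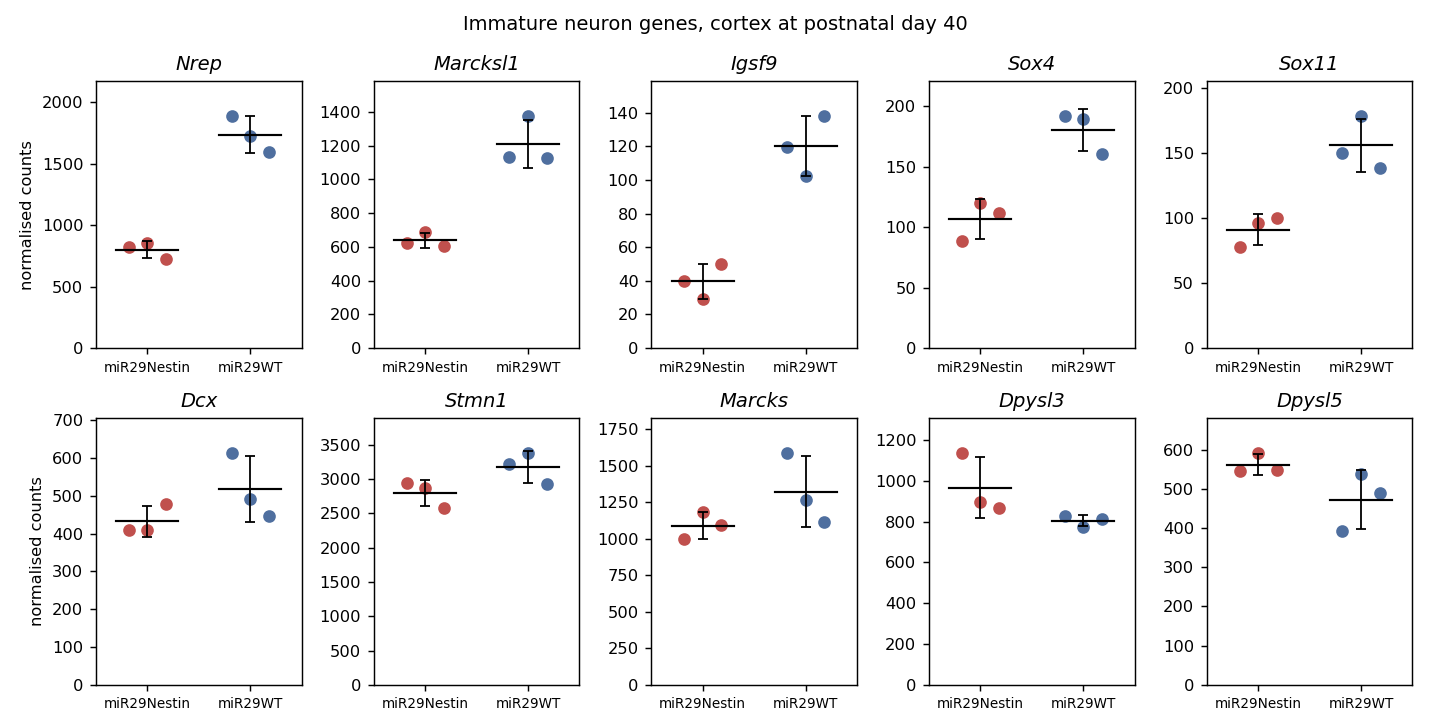
Normalised counts (y axis, from 0) of the 10 genes in each of 3 miR29Nestin libraries (left, red) and 3 miR29WT libraries (right, blue) at postnatal day 40. Points are libraries, horizontal lines are group means and bars are 1 SD. The groups are apart for Nrep, Marcksl1, Igsf9, Sox4 and Sox11, which are lower in miR29Nestin, and for Dpysl3 and Dpysl5, which lie above miR29WT by a smaller margin.

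The transcription factor genes fell together. Sox4 had 88.5, 120 and 111 normalised counts in the 3 miR29Nestin libraries, against 192, 189 and 161 in the 3 miR29WT libraries. The highest miR29Nestin value lay below the lowest miR29WT value. Its mean fell by 40.9%, with a log2 difference of −0.39 (SE 0.07, limma adjusted p = 0.00461). Sox11, its close relative in the SoxC group, had 77.4, 96.3 and 99.7 counts in miR29Nestin and 150, 179 and 139 in miR29WT. Again the groups did not overlap, and the mean fell by 41.5% (log2 difference −0.38, SE 0.07, adjusted p = 0.00592). Sox12, the third SoxC gene, stood at 431 ± 12.5 counts in miR29Nestin and 415 ± 59.1 in miR29WT (SD, n = 3 each), and its log2 difference of 0.04 did not pass (adjusted p = 0.726).

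Of the pair of genes at the membrane and the actin cytoskeleton, Marcksl1 fell. It encodes a substrate of protein kinase C that binds actin filaments at the plasma membrane. It had 626, 691 and 603 counts in miR29Nestin, against 1131, 1377 and 1129 in miR29WT. All 3 miR29Nestin libraries lay far below the 3 miR29WT libraries, and the mean fell by 47.2% (log2 difference −0.77, SE 0.08, adjusted p = 0.000103). Its larger relative Marcks, with the same kind of effector domain, had 1000, 1181 and 1092 counts in miR29Nestin and 1591, 1263 and 1117 in miR29WT. These groups overlapped, miR29WT library 1 stood highest, and the log2 difference of −0.23 did not pass (95% interval −0.45 to −0.01, adjusted p = 0.131). Without miR29WT library 3 it passed (log2 difference −0.33, adjusted p = 0.0474), and without miR29WT library 1 the difference was −0.11 (adjusted p = 0.390).

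Igsf9, an immunoglobulin-type adhesion protein of dendrites and inhibitory synapses, had the largest relative drop of the 10 genes. It had 40.1, 29.1 and 49.8 counts in miR29Nestin, against 120, 102 and 138 in miR29WT. The groups did not overlap, and the mean fell by 66.9% (log2 difference −0.63, SE 0.08, adjusted p = 0.000489). The deposited transformation compresses low values, so on a log2 scale of recovered counts plus 1 the differences were −1.59 for Igsf9, −0.76 for Sox4 and −0.77 for Sox11, and all 3 kept their calls.

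Nrep, a small protein found in developing and regenerating neurons, had the largest difference of the 10 on the deposited log2 scale. On the log2 scale of recovered counts plus 1 it was −1.12, a smaller fall than the −1.59 of Igsf9. It had 819, 856 and 721 counts in miR29Nestin, against 1889, 1727 and 1594 in miR29WT. Every miR29Nestin library lay far under the lowest miR29WT library. The mean fell by 54.0% (log2 difference −0.97, SE 0.07, adjusted p = 1.31e-05).

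The microtubule genes Dcx and Stmn1 gave smaller differences that did not pass. Dcx had 408, 409 and 479 counts in miR29Nestin, against 614, 492 and 446 in miR29WT, so the groups overlapped (log2 difference −0.19, 95% interval −0.38 to 0.01, adjusted p = 0.172). Without miR29WT library 1, the highest, the difference of Dcx was −0.09 (adjusted p = 0.488). Stmn1 had 2944, 2866 and 2581 counts in miR29Nestin, against 3222, 3388 and 2932 in miR29WT. The highest miR29Nestin library lay just above the lowest miR29WT library (log2 difference −0.17, SE 0.07, adjusted p = 0.0842). The labels do not say whether same-numbered libraries of the 2 groups are pairs, so the main fit was unpaired. In an alternative limma fit with the replicate number as a block Stmn1 passed (adjusted p = 0.0153), while Dcx did not (adjusted p = 0.136).

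The collapsin response mediators stood on the other side. Dpysl3 had 1139, 897 and 867 counts in miR29Nestin, against 827, 774 and 813 in miR29WT, and Dpysl5 had 545, 593 and 549 in miR29Nestin, against 392, 537 and 489 in miR29WT. In both genes every miR29Nestin library lay above every miR29WT library, with a narrow gap. The log2 differences were 0.21 for Dpysl3 (SE 0.08, adjusted p = 0.0944) and 0.20 for Dpysl5 (SE 0.08, adjusted p = 0.123). With the replicate block both passed (adjusted p = 0.0321 for Dpysl3 and 0.0470 for Dpysl5), so that 8 of the 10 genes were called, 6 lower and 2 higher, where the background was 13.6% lower and 11.7% higher. Dpysl3 also passed with the sex of the mice as a covariate (log2 difference 0.28, adjusted p = 0.0150) and without miR29Nestin library 3 (0.28, adjusted p = 0.0392), but without miR29Nestin library 1 its difference was 0.11 (adjusted p = 0.225). That of Dpysl5 was 0.10 without miR29WT library 1 (adjusted p = 0.366). By their Y-linked genes 1 of 3 miR29Nestin and 2 of 3 miR29WT libraries were from males, and the 5 falls kept their calls with that covariate, where the background was 11.3% lower and 9.51% higher.

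**Figure D2:**
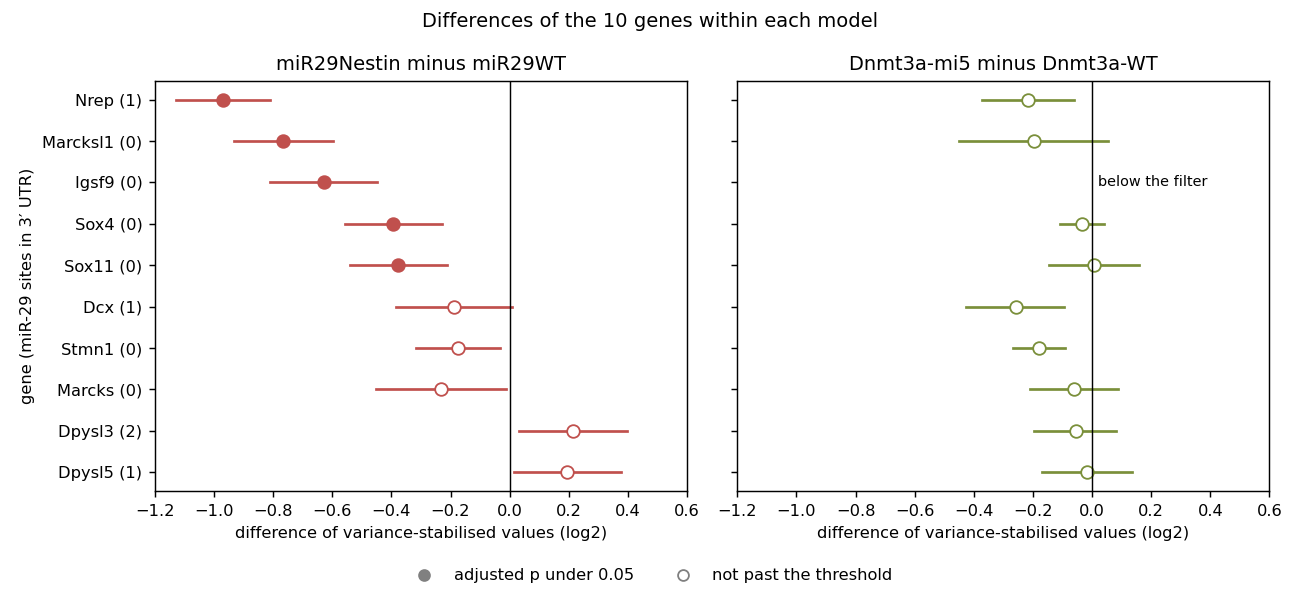
Difference of group means on the deposited log2 scale (x axis) for the 10 genes, miR29Nestin minus miR29WT at left and Dnmt3a-mi5 minus Dnmt3a-WT at right. Lines are 95% intervals from limma, filled points passed an adjusted p of 0.05, and the number of miR-29 matches stands beside each gene. The 5 filled points at left run from −0.97 for Nrep to −0.38 for Sox11, and no point is filled at right.

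The matches and the differences did not line up in 1 direction across the 10 genes. The 4 genes with a match had log2 differences of 0.21 (Dpysl3), 0.20 (Dpysl5), −0.19 (Dcx) and −0.97 (Nrep). The 6 without ran from −0.77 (Marcksl1) to −0.17 (Stmn1), all below zero. These are descriptions, and no test was made of them.

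The relatives of the 10 genes, in lists of 79 further genes, were lower more often than higher without miR-29. Of 77 tested, 28 fell and 9 rose, with a median of −0.12. Among all tested genes 10% were lower and 9.02% higher, with a median of −0.005. These shares are also the background for each list below, and no test of a list against them was made. In the collapsin response family the members moved apart. Dpysl4 rose, with 1094 ± 57.5 counts in miR29Nestin libraries and 669 ± 27.7 in those of miR29WT (SD, n = 3 each; log2 difference 0.59, adjusted p = 9.02e-05), and Crmp1 fell (−0.20, adjusted p = 0.0380). The Crmp1 call was lost without any 1 of miR29Nestin library 2 or 3 or miR29WT library 1 or 2 (adjusted p = 0.0895 to 0.148) and with sex as a covariate (adjusted p = 0.0572). Dpysl2 had a difference of 0.17 that did not pass (adjusted p = 0.0889). Among the kinases related to doublecortin, Dclk3 fell (−0.49, adjusted p = 0.000972) and Dclk1 rose (0.21, adjusted p = 0.0223), and the Dclk1 call was lost without any 1 of miR29Nestin library 2 or 3 or miR29WT library 1 or 2 (adjusted p = 0.0548 to 0.0925).

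Of the stathmins beside Stmn1, 2 of 3 fell. The growth-cone stathmin Stmn2 stood at 4675 ± 168 counts in miR29Nestin and 5792 ± 193 in miR29WT (SD, n = 3 each; log2 difference −0.30, adjusted p = 0.00169). Stmn4 had a difference of −0.39 (adjusted p = 0.00546), and Stmn3 one of 0.08 that did not pass (adjusted p = 0.304). Of 4 growth-cone membrane genes, Gap43, the growth-associated substrate of protein kinase C, fell (−0.28, adjusted p = 0.0153, but 0.0622 without miR29WT library 2), and Basp1, Nrn1 and Gpm6a did not pass.

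In the adhesion list, 4 of 8 fell and 1 rose. Chl1, an L1-type protein of growing axons, had 635 ± 53.3 counts in miR29Nestin and 1101 ± 144 in miR29WT (SD, n = 3 each; log2 difference −0.65, adjusted p = 0.000411), L1cam a difference of −0.34 (adjusted p = 0.00133) and Nrcam one of −0.25 (adjusted p = 0.00555). Igsf9b, the paralogue of Igsf9, rose to 4253 ± 217 counts in miR29Nestin, against 2395 ± 105 in miR29WT (log2 difference 0.78, adjusted p = 8.92e-06). Its 3′ UTR holds 8 miR-29 matches, and that of Igsf9 a count of 0. Of the other named relatives called in this comparison, the rises Dpysl4 and Tubb2a hold 1 match each. So do the falls Stmn2, Tubb2b, Sox5, Pak3, Kif1a and Grin2a. The rises Dclk1, Nefh and Ina and the remaining named falls hold 0. A link between matches and differences was not tested.

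Of 20 tested other immature neuron genes, 8 fell and 3 rose (median −0.16). The tubulin Tubb2b had 461 ± 61.7 counts in miR29Nestin and 819 ± 100.1 in miR29WT (SD, n = 3 each; log2 difference −0.65, adjusted p = 0.000572), and the transcription factors Sox5 and Neurod2 had differences of −0.53 (adjusted p = 0.000425) and −0.34 (adjusted p = 0.00494). The tubulin Tubb2a rose (0.34, adjusted p = 0.00151). Of 19 other cytoskeleton regulators 7 fell and 1 rose (median −0.15), with Pak3, a kinase downstream of Rac and Cdc42, at −0.45 (adjusted p = 0.00781), Cdk5r1, the activator of Cdk5, at −0.25 (adjusted p = 0.00306), Map4 at −0.19 (adjusted p = 0.00835) and the axonal motor Kif1a at −0.17 (adjusted p = 0.0115, but 0.0614 without miR29WT library 3). Of 16 genes of mature neurons 4 fell and 2 rose (median −0.03). The heavy neurofilament Nefh was among the rises (0.47, adjusted p = 0.00290), and the chloride transporter Slc12a5 (−0.26, adjusted p = 0.00719), the vesicle sensor Syt1 (−0.15, adjusted p = 0.0180) and the receptor subunit Grin2a (−0.27, adjusted p = 0.0255) were among the falls. The Syt1 call was lost without miR29Nestin library 2 (adjusted p = 0.0617) or miR29WT library 3 (0.0890), and that of Grin2a without any library other than miR29Nestin library 3 (0.0597 to 0.0852).

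**Figure D3:**
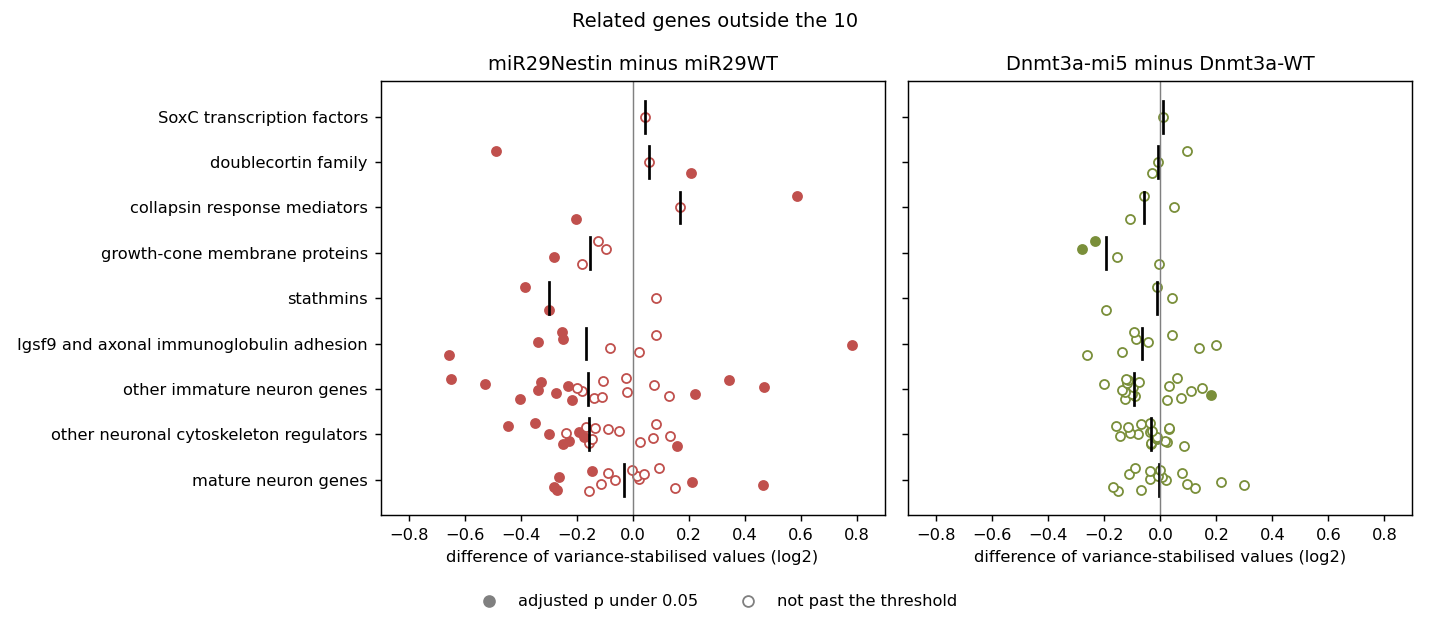
Difference of group means on the deposited log2 scale (x axis) for related genes, by list, miR29Nestin minus miR29WT at left and Dnmt3a-mi5 minus Dnmt3a-WT at right. Each point is a gene, filled where its adjusted p was under 0.05, and black bars are list medians. At left the median is lowest for the stathmins (−0.30), and Igsf9b stands alone at 0.78.

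In the first model the marker sums of migrating neuroblasts, excitatory neurons, astrocytes and leptomeningeal fibroblasts lay apart between the groups. The other marker sums overlapped. Of 4 tested progenitor and proliferation markers only Hes5 was called, lower, and the 10 markers summed to 718 to 785 counts in miR29Nestin and 735 to 896 in miR29WT. Of 6 tested markers of migrating neuroblasts, Dlx6 fell and Gad1, also made by all interneurons, rose, and the list summed to 5502 to 6134 counts in miR29Nestin and 5102 to 5205 in miR29WT, most of it Gad1. Of 8 excitatory neuron markers 4 fell, with sums of 61750 to 65880 in miR29Nestin and 70100 to 80760 in miR29WT. Of 8 astrocyte markers 4 rose and 1 fell (55450 to 59940 against 50450 to 52590), of 8 oligodendrocyte precursor markers 1 rose (6663 to 7387 against 6082 to 6718), of 8 mature oligodendrocyte markers 3 rose (107600 to 119400 against 97590 to 108600), and of 7 leptomeningeal fibroblast markers 5 rose (1730 to 2237 against 821 to 1361). Markers of dentate granule cells (1 of 4 lower), striatal neurons (0 of 7, at 5054 to 11310 in miR29Nestin and 6292 to 10260 in miR29WT), interneurons (2 higher and 2 lower of 8), microglia (0 of 8), endothelium (0 of 8) and choroid plexus (0 of 1) completed the lists. None of these markers was at 0 in every library. Their part in the changes of the 10 genes was not tested.

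In Dnmt3a-mi5 cortex, 0 of the 9 tested genes were called (limma), where 0.797% of all tested genes were (0.225% higher and 0.572% lower). At an unadjusted p under 0.05 there were 3 of 9, Dcx, Stmn1 and Nrep, where the background was 19.0%. The members' median log2 difference was −0.06, against 0.002 over all tested genes. With the removed library effect as a term in the model the count was again 0, where the background was 0.122%.

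**Figure D4:**
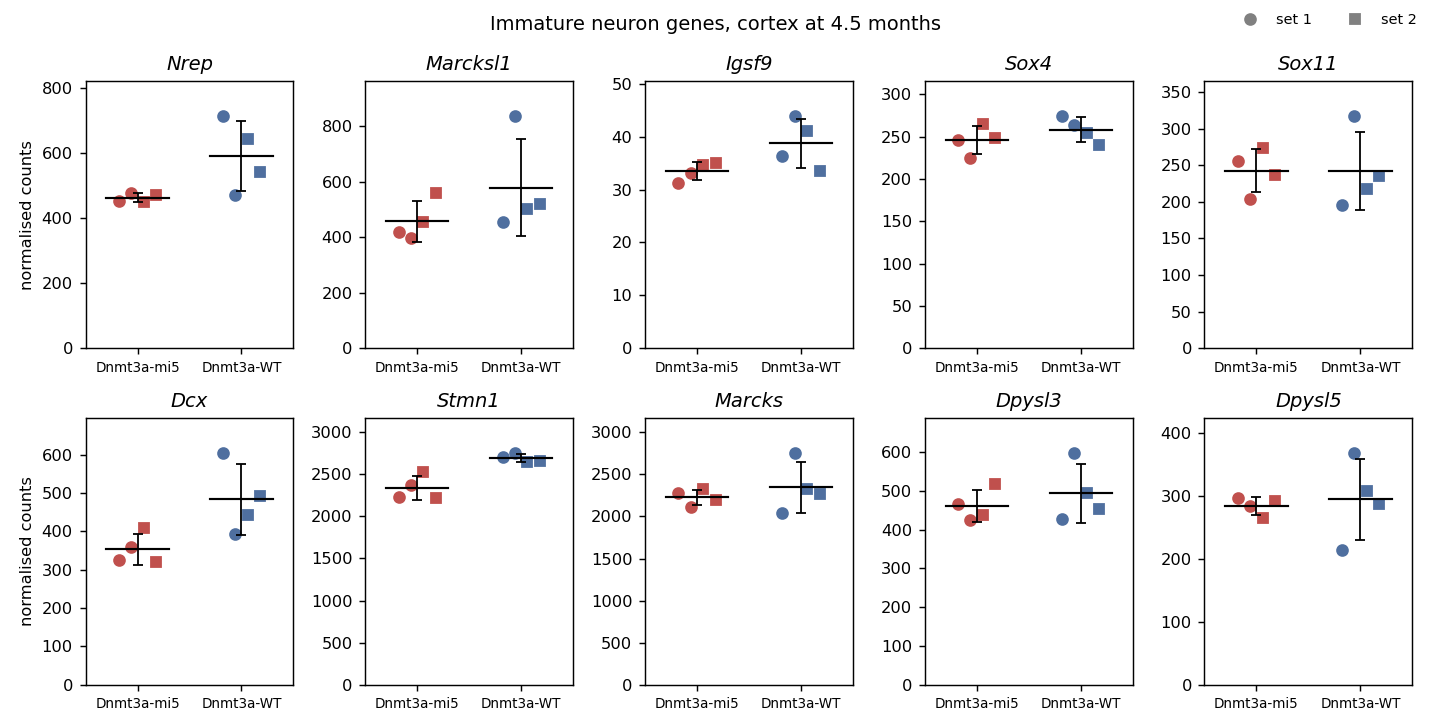
Normalised counts (y axis, from 0) of the 10 genes in each of 4 Dnmt3a-mi5 libraries (left, red) and 4 Dnmt3a-WT libraries (right, blue) at 4.5 months. Circles mark libraries of set 1 and squares those of set 2, lines are group means and bars are 1 SD. Stmn1 is the gene whose groups are apart, with every Dnmt3a-mi5 library at or below 2526 counts, and 1 Dnmt3a-WT library of set 1 stands highest in 7 of the 10 genes.

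Stmn1 had 2224, 2373, 2526 and 2219 counts in the 4 Dnmt3a-mi5 libraries, against 2709, 2756, 2645 and 2660 in the 4 Dnmt3a-WT libraries. It was the 1 gene of the 10 whose groups did not overlap, where 6.67% of tested genes lay wholly lower and 5.33% wholly higher. Its log2 difference of −0.18 did not pass (95% interval −0.27 to −0.09, adjusted p = 0.0650). It passed in 1 of 16 settings, the stricter filter on low values (adjusted p = 0.0493). With the removed effect as a term in limma its adjusted p was 0.144. Its log2 differences were −0.22 within set 1 and −0.14 within set 2.

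Dcx had 325, 361, 408 and 319 counts in Dnmt3a-mi5, against 606, 392, 443 and 493 in Dnmt3a-WT. Dnmt3a-mi5 library 3 reached above Dnmt3a-WT library 2, and the log2 difference was −0.26 (95% interval −0.43 to −0.09, adjusted p = 0.108). The difference was −0.30 within set 1 and −0.22 within set 2. With the removed effect as a term in limma the adjusted p of Dcx was 0.186.

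Nrep had 453, 477, 449 and 470 counts in Dnmt3a-mi5, against 714, 471, 642 and 540 in Dnmt3a-WT. The Dnmt3a-mi5 libraries lay close together, and Dnmt3a-WT library 2 lay among them, so the log2 difference of −0.22 did not pass (95% interval −0.37 to −0.06, adjusted p = 0.137). With the removed effect as a term in limma the adjusted p of Nrep was 0.229. Without Dnmt3a-WT library 2, both Nrep (−0.28, adjusted p = 0.0366) and Dcx (−0.32, adjusted p = 0.0438) passed, each in this 1 of 16 settings only.

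That library was the highest of its group in 7 of the 10 genes (Sox11, Dpysl3, Dpysl5, Marcks, Marcksl1, Stmn1 and Igsf9) and the lowest in Dcx and Nrep. Marcksl1 showed it most, with 417, 395, 456 and 559 counts in Dnmt3a-mi5, against 456, 837, 500 and 518 in Dnmt3a-WT. On a log2 scale of recovered counts plus 1 the differences were −0.44 for Dcx, −0.34 for Nrep and −0.31 for Marcksl1, and none passed (adjusted p = 0.103, 0.134 and 0.374). On the deposited scale the difference of −0.20 for Marcksl1 (95% interval −0.45 to 0.05, adjusted p = 0.382) was −0.39 within set 1, which holds that library, −0.01 within set 2, and −0.07 without the library. Over all tested genes, 85 were called with all libraries, 176 without Dnmt3a-WT library 2 and 9 to 24 without any other single library.

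The other genes had smaller estimates in the comparison of Dnmt3a-mi5 with Dnmt3a-WT. Sox4 ranged from 225 to 265 counts in Dnmt3a-mi5 and from 240 to 275 in Dnmt3a-WT (log2 difference −0.03, 95% interval −0.11 to 0.04), and Sox11 from 204 to 273 and from 196 to 318 (0.01, −0.14 to 0.16). Those intervals leave out the falls of −0.39 and −0.38 seen in these genes without miR-29. However, the tables were normalised apart, compress low values to different degrees and come from mice of different ages. The difference between models was not tested. Marcks (2106 to 2322 in Dnmt3a-mi5, 2035 to 2758 in Dnmt3a-WT), Dpysl3 (423 to 518 and 427 to 598) and Dpysl5 (265 to 298 and 214 to 369) had differences of −0.06, −0.06 and −0.02, with adjusted p of 0.678, 0.678 and 0.928. Igsf9, below the filter, had 31.3 to 35.03 counts in Dnmt3a-mi5 and 33.6 to 43.9 in Dnmt3a-WT, and in the fit without the filter its difference was −0.04 (adjusted p = 0.554).

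Of the 75 tested relatives, 2 fell and 1 rose in Dnmt3a-mi5, where 0.572% of all tested genes were lower and 0.225% higher. The falls were Nrn1, a growth factor anchored to the neuronal membrane (1744 ± 111 counts in Dnmt3a-mi5, 2113 ± 68.9 in Dnmt3a-WT; SD, n = 4 each; log2 difference −0.23, adjusted p = 0.0432), and Gpm6a, a membrane protein of growing processes (−0.28, adjusted p = 0.0478). The rise was the intermediate filament Ina (0.18, adjusted p = 0.0495), which had also risen without miR-29 (0.22, adjusted p = 0.0183). All 3 calls were lost with the removed effect as a term (adjusted p = 0.114 for Nrn1 and Gpm6a and 0.131 for Ina) and without any single library other than Dnmt3a-WT library 2. Here the marker sums of excitatory neurons and astrocytes lay apart between the groups, and the other marker sums overlapped. Excitatory neuron markers summed to 56350 to 61710 counts in Dnmt3a-mi5 and 62320 to 66350 in Dnmt3a-WT, with 0 of 8 called. Astrocyte markers summed to 53330 to 55410 and 60830 to 65120, with 1 of 8 lower. Of 7 tested microglial markers 2 fell and of 7 endothelial markers 1 rose. Choroid plexus markers ranged from 317 to 13740 in Dnmt3a-mi5 and from 125 to 11740 in Dnmt3a-WT. Their part in these values was not tested.

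Per kilobase of the longest annotated transcript, Stmn1 was the most abundant of the 10 in every group, at 2639 normalised counts per kb in miR29Nestin and 3001 in miR29WT, and at 2203 in Dnmt3a-mi5 and 2540 in Dnmt3a-WT. In miR29WT it was followed by Marcksl1 (755), Nrep (525) and Marcks (327), and in miR29Nestin by Marcksl1 (399), Marcks (269.5) and Nrep (241), so that Nrep and Marcks stood in the opposite order. The lowest in miR29Nestin was Igsf9 (9.43 per kb) and in miR29WT Sox11 (18.8 per kb).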

How the data were processed

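Cortical poly(A) RNA was sequenced with strand-marking kits, per the labels' protocols, with a different kit and age in each model. The authors deposited 2 tables of variance-stabilised log2 values, and the submitters' processing notes list the tools STAR, Salmon, cutadapt and DESeq2. The same notes list the genome builds mm9 and hg19, without saying which step used them. Each value was turned back into a normalised count. In the Dnmt3a table the means of 2 sets of 4 libraries are equal for every gene, so an effect had been removed before deposit, and depth there is unknown. Sex was not assigned in it. The recovered counts of the Y-linked gene Kdm5d were 57.56 in each set 1 library and 53.29 to 64.77 in set 2. Whether the removed effect followed sex was not tested. That table repeats its column names, so library numbers follow column order only.

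Groups were compared on the deposited log2 values with limma (mean-variance trend, Benjamini-Hochberg adjustment over all tested genes), for genes whose mean lay at least 1 above the table's lowest value. The limma fit alone was tested on simulated data, with independent values and no removed set effect. The p-values measure the spread between these libraries. Same-numbered libraries of the miR29 table deviated together (r = 0.335, 0.204 and 0.186), but miR29Nestin library 3 with miR29WT library 2 gave 0.178. The labels do not state pairs, so pairing is not established and the replicate block served only as an alternative. Alternatives were other filters, a robust prior, recovered counts on a log2 scale, a median shift, the replicate block, sex, the removed effect and leaving out each library. All members are named, and from each related list up to 4 called genes with the smallest p (up to 2 in the Dnmt3a table, and per marker list). Uncalled relatives in families of up to 4 genes were named after their values were seen. The 10 genes and all lists were chosen with earlier results of these data known. GENCODE M21 names matched 24086 of the 24444 symbols.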

Additional observations from a re-analysis of the deposited data

How the results depend on the processing

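Without miR-29, the calls of Nrep, Marcksl1, Igsf9, Sox4 and Sox11 held under every alternative in which the gene was tested, with adjusted p (limma) up to 0.0310. The stricter filter on low values no longer tested Sox4, Sox11 and Igsf9, which left 2 members called. With the replicate block 8 members and 3037 of all genes were called, and the block changed no call of a member other than Stmn1, Dpysl3 and Dpysl5. Leaving out 1 library gave 5 to 6 members, 24 to 35 related genes and 1384 to 2313 of all genes, the lowest without miR29WT library 2.

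Of the tested genes in the Dnmt3a table, 85 were called, against 25 with no filter and 13 with the removed effect as a term, and both left 0 related genes. The stricter filter called 1 member. Leaving out 1 library gave 9 to 176 genes, 0 to 2 members and 0 to 5 related genes, in each case the highest without Dnmt3a-WT library 2. Leaving out 1 library also turned the sign of 4 uncalled members, Sox11 (−0.037 to 0.077), Dpysl5 (−0.089 to 0.045), Dpysl3 (−0.096 to 0.005) and Marcks (−0.117 to 0.009). The cause of these shifts was not tested. No paired analysis was possible because the repeated column names of the Dnmt3a table do not identify mice.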
